A study of Arabidopsis thaliana with 3 samples.

Results

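The 10 genes described here supply chromatin and DNA precursors to replicating cells. They are 5 genes of the replication histone H3.1, HTR1 (AT5G65360), HTR2 (AT1G09200), HTR3 (AT3G27360), HTR9 (AT5G10400) and HTR13 (AT5G10390), and the histone H4 gene HIS4 (AT2G28740). The others are both genes of the sliding clamp PCNA, PCNA1 (AT1G07370) and PCNA2 (AT2G29570), and the ribonucleotide reductase genes TSO2 (AT3G27060) and RNR1 (AT2G21790). They were taken from the count table by gene identifier, 10 of its 32833 genes. The cells came from Arabidopsis thaliana seedlings of ecotype Col-0, 5 days after germination, that carried the construct pHB53:NLS-3xmCherry, a nuclear red reporter driven by the HB53 promoter. The plant material was turned into protoplasts, and mCherry-positive cells were sorted as lateral root primordium cells of stages I-IV. All cells belong to 1 group with 3 labelled replicates and no control group, so every comparison below is between cells of the same sorted population.

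A lateral root starts when pericycle cells next to the xylem divide and build a dome of small cells, the primordium. A cell in S phase doubles its DNA and must wrap the new strands in new nucleosomes. Histones H3.1, H4, H2A and H2B are the bulk histones made for this purpose, whereas H3.3 is placed into chromatin at any time of the cell cycle. PCNA is a ring that holds DNA polymerases on the template and recruits the chaperones that lay down histones. Ribonucleotide reductase turns ribonucleotides into the deoxyribonucleotides that the polymerases use, with a large subunit encoded by RNR1 and small subunits encoded by genes such as TSO2 and RNR2A. Transcripts of replication histones in particular are known to accumulate in S phase in plants.

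Of 573 plate wells, 322 had reads of 500 or more genes and were counted as cells. They held 8315 to 1459543 reads (median 245742) and 506 to 9516 genes (median 4009). The wells were sequenced on 3 flow cells of 2 plates each, and values are given below for each flow cell. Neither labels nor files link wells and replicates, so whether the 3 flow cells are the 3 replicates or technical batches is not known. The population was therefore treated as 1 sample, no test between cells was made, and intervals cover counting error only. The labels name no molecular identifiers, so PCR copies may be counted more than once. Of genes that mark the sorted tissue, the reporter's own HB53 had reads in 11.5% of cells, PUCHI in 9.01%, LBD16 in 36% and LRP1 in 55.9%. Other primordium genes ranged widely, with IAA28 read in 58.4% of cells. In the classes of 127 and 168 cells compared further below, LBD18 was read in 2 and 1 cells and LBD29 in 1 and 2. MAKR4 was read there in 4 and 6 cells, and GATA23 in 0 and 0. Wells under 500 genes served as a background: 251 such wells with 2568491 reads in all held 3 reads of the 10 genes, 1 each of HIS4, TSO2 and RNR1.

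The 5 H3.1 genes encode the same protein of 136 residues but are told apart by their DNA. Between any pair, 43 to 81 of the 411 coding bases differed, and 115 of the 411 positions varied among the 5. The first 90 coding bases show how synonymous changes were spread, with the 24 positions that vary among the genes in capitals. These sequences are from the RefSeq annotation of TAIR10.1.
HTR1: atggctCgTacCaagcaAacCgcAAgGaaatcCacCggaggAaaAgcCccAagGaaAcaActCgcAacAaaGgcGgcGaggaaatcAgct
HTR2: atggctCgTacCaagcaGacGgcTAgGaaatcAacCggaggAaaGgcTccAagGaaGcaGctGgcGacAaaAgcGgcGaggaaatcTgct
HTR3: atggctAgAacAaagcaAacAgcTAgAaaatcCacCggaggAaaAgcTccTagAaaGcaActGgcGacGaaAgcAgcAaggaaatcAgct
HTR9: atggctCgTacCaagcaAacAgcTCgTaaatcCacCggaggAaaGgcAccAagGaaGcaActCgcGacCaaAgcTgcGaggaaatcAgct
HTR13: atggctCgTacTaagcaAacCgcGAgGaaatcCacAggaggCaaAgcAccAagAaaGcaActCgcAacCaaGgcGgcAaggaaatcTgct
The longest run of coding bases shared by all 5 genes was 11. Every window of 150 bases of the transcripts of HTR1, HTR2, HTR9, HTR13, HIS4, PCNA1, TSO2 and RNR1 was found in no other annotated gene. HTR3 shared windows with SDH2-1 (AT3G27380, a succinate dehydrogenase subunit), which overlaps it on the same strand, and 73.8% of its windows were its own. PCNA2 overlaps the enolase gene ENOC (AT2G29560) on the opposite strand, and 87.4% of its windows were its own. TSO2 overlaps AT3G27050 on the same strand in the annotation. How reads in overlaps were counted, and whether by strand, is not stated, so the counts of HTR3, PCNA2 and TSO2 are less certain than the others. The levels of these pairs hardly moved together across cells, with a mean Pearson r of 0.11 for HTR3 and SDH2-1, 0.04 for PCNA2 and ENOC and 0.14 for TSO2 and AT3G27050 (322 cells, within flow cells). The overlapping gene was read in 43 of 50 cells with HTR3, 16 of 83 with PCNA2 and 17 of 52 with TSO2. Over all 322 cells, SDH2-1 was read in 215, ENOC in 53 and AT3G27050 in 64. Whether reads were shared was not tested.

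HIS4 likewise encodes the same protein of 103 residues as the 7 other H4 genes examined, with 78.85% to 82.69% of coding bases identical. The H3.1 protein differed from H3.3, as encoded by HTR5 and HTR8, at 4 of 136 residues. HTR13 and HTR9 are neighbours on chromosome 5, on the same strand with 577 bases between them, at chr5:3268847-3269594 and chr5:3270172-3270957. The other H3.1 genes stood at chr5:26119859-26120581 (HTR1), chr1:2971571-2972334 (HTR2) and chr3:10129105-10129937 (HTR3). All 5 H3.1 genes and HIS4 (chr2:12329345-12330059) had 1 exon and lay on the minus strand. PCNA1 (chr1:2263037-2264553, plus strand) and PCNA2 (chr2:12649906-12651753, minus strand) had 4 exons each, TSO2 (chr3:9979841-9981620, minus strand) had 2, and RNR1 (chr2:9293261-9297861, plus strand) had 17.

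Because the H3.1 genes encode the same protein from separate loci and their levels were correlated across cells, the 250 bases before each annotated start are shown, on the gene's strand, with matches of the histone octamer and hexamer in capitals.
HTR1 (chr5:26120582-26120831, strand minus): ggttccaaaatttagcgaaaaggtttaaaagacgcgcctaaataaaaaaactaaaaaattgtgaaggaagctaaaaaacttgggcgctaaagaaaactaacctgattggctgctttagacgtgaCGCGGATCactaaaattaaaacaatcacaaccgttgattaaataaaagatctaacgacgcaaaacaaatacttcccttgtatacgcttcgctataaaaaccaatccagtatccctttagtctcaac
HTR2 (chr1:2972335-2972584, strand minus): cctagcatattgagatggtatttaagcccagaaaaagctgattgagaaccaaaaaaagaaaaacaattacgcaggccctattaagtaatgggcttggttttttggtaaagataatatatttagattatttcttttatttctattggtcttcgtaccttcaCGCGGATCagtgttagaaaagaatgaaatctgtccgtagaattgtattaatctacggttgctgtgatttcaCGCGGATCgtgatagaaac
HTR3 (chr3:10129938-10130187, strand minus): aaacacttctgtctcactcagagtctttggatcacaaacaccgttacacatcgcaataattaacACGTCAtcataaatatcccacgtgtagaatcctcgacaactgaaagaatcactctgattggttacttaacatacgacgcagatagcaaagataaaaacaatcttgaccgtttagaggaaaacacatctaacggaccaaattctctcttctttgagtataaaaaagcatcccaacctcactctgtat
HTR9 (chr5:3270958-3271207, strand minus): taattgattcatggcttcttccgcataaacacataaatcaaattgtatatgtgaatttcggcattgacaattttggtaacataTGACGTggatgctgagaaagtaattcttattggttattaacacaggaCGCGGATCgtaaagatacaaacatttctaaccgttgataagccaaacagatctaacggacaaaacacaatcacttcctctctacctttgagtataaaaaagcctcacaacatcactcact
HTR13 (chr5:3269595-3269844, strand minus): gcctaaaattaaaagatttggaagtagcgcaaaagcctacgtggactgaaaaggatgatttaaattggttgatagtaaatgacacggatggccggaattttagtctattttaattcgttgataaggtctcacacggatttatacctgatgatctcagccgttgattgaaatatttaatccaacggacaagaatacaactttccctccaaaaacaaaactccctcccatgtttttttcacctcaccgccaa
The octamer CGCGGATC and the hexamer ACGTCA are elements known from plant histone promoters. Both strands of the 250 bases before and the 50 after each start were searched. HTR1 held the octamer at position -126, HTR2 at -90 and -19, and HTR9 at -120, counted from the annotated start. It stood in 3 of the 10 promoters, against 40 of 27443 promoters of the genome (0.146%). The hexamer was found in HTR3 at -186 and in HTR9 at -167, and in 9.19% of all promoters. The telo box AAACCCTA was found in PCNA1 at -118 and RNR1 at -206, and in 6.22% of all promoters. For E2F sites the spellings TTTCCCGC, TTTGGCGC, TTTCGCGC and TTTGCCGC were searched together. RNR1 held a match, GCGGGAAA on its own strand, at position 11 after the start, and 1.76% of all promoters held a match. No matches of different motifs overlapped in these promoters. A match is a run of letters and was not tested for binding.

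HTR2 was the most widely detected of the 10 genes and HTR13 the least. A read of HTR2 was present in 109 of 322 cells (33.9%, exact 95% interval 28.7 to 39.3), with 33.3%, 35.4% and 33.1% of cells on flow cells 1, 2 and 3. HTR1 had reads in 28% of cells (23.1 to 33.2), HTR9 in 20.5% (16.2 to 25.3), HTR3 in 15.5% (11.8 to 20) and HTR13 in 9.63% (6.64 to 13.4). HIS4, 1 of 8 genes for the same H4 protein, had reads in 22.4% of cells (17.9 to 27.3). Of the clamp genes, PCNA2 was read in 25.8% of cells (21.1 to 30.9) and PCNA1 in 14.9% (11.2 to 19.3). Of the reductase genes, RNR1 was read in 28.9% (24 to 34.2) and TSO2 in 16.1% (12.3 to 20.6). When the genes are ranked by this share, the intervals of neighbouring ranks overlapped at every step. The intervals of HTR2 and HTR9, of PCNA2 and PCNA1 and of RNR1 and TSO2 did not overlap. When cells were thinned to 115851 reads each, which left out 65 shallower cells, HTR2 stood at 34.2%, RNR1 at 30% and HTR13 at 9.73% of the 257 cells left. Thinning kept 92 of 102, 91 of 96 and 74 of 124 cells on flow cells 1, 2 and 3, so it changed the mix of flow cells as well.

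**Figure D1:**
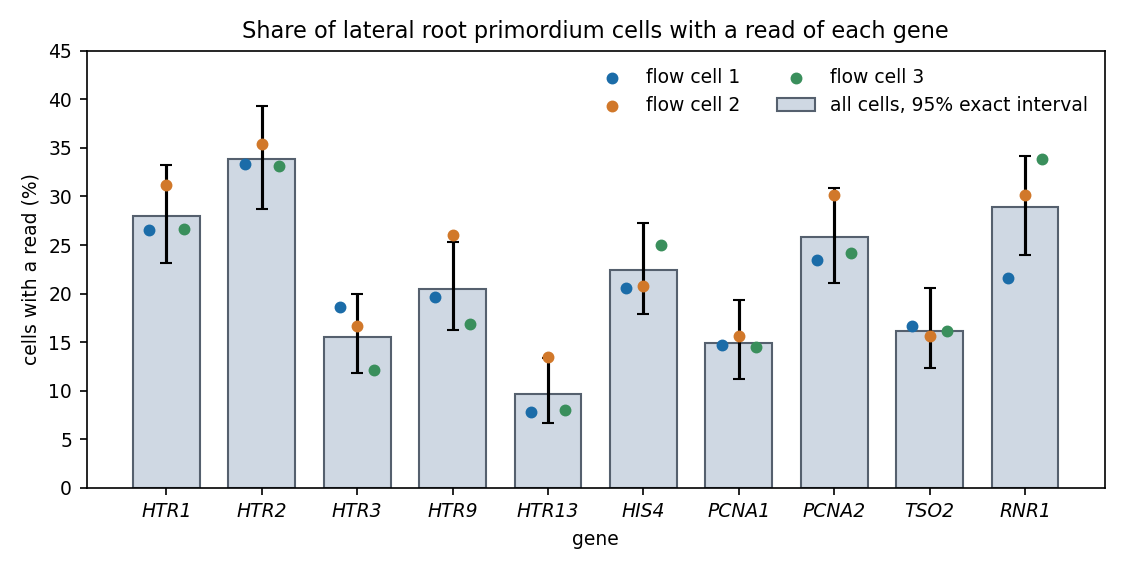
Bars give the percentage of the 322 cells with at least 1 read of each gene, with exact 95% intervals, and points give the percentage on each of the 3 flow cells. HTR2 stands at 33.9% and HTR13 at 9.63%, and the flow cells differ most for RNR1, at 21.6%, 30.2% and 33.9%.

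Per kilobase of transcript, 3 of the H3.1 genes stood above the other 7 genes on every flow cell. Summed over all cells, HTR9 had 114 RPKM, reads per kilobase of its longest transcript scaled to library depth (68.1 to 147 over flow cells), and HTR1 had 99.3 (60.2 to 136). HTR2 lay between them with a range of 64.1 to 125. The ranges of these 3 overlapped, but HTR9 exceeded HTR2 on each flow cell (147, 68.1 and 135 against 125, 64.1 and 121). HTR1 stood below both on flow cells 1 and 2 and above both on flow cell 3. PCNA2 followed at 44.4 (32.1 to 57.4), HIS4 at 40.4 (20.3 to 58.7) and RNR1 at 39.3 (35.5 to 44.3). Their ranges overlapped too, and their order changed between flow cells. TSO2 had 23.7 (9.49 to 34), HTR13 16.5 (9.44 to 22.1), PCNA1 16 (11.5 to 19.7) and HTR3 12.2 (6.41 to 18.7). These 4 ranges overlapped, but HTR3 was the lowest of the 4 on each flow cell, and TSO2 exceeded HTR13 on each. In cells with a read, the level was spread widely. HTR9 ran over those 66 cells from 1.74 to 2744 CPM, the reads of a gene scaled to the cell's total, with a median of 209, and HTR2 over its 109 cells from 1.68 to 1886 CPM with a median of 86.8. RNR1 ran over 93 cells from 1.43 to 1630 CPM, median 199. TSO2 ran over 52 cells from 1.51 to 1987 CPM, median 98.6. Flow cell 2 gave the lowest summed CPM for each of these genes other than PCNA2 and RNR1.

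The H3.3 genes were read in more cells than any of the H3.1 genes. HTR5 and HTR8, which encode H3.3, had reads in 87% and 84.2% of cells, at 354 and 387 RPKM. HTR4, the other H3.3 gene here, had reads in 63% at 102 RPKM. HTR12, the centromeric H3, had reads in 11.8% of cells. Within the H4 family HIS4 gave 5.32% of the reads, and AT1G07660, read in 78% of cells, gave 48.1%. These shares depended on flow cell 1, where HIS4 gave 9.17% and AT1G07660 15.9%; without it HIS4 gave 3.01% and AT1G07660 67.5%. TSO2, with 23.7 RPKM and reads in 16.1% of cells, stood beside RNR2A, another small subunit gene, with 27.6 RPKM and reads in 30.7% of cells.

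Reads of many of the genes fell into a minority of cells. At least 1 of the 10 was read in 217 of 322 cells (67.4%), at least 3 in 100 cells (31.1%) and 6 or more in 40 cells (12.4%, exact 95% interval 9.02 to 16.5). All 10 were read in 8 cells, of which 3, 3 and 2 came from flow cells 1, 2 and 3. None was read in 105 cells. The 8 cells held 1113 to 8447 CPM summed over the 10 genes (median 3216), with HTR9 at 2.81 to 2590 CPM and RNR1 at 72.2 to 1630 CPM. The number of genes detected moved with these counts: cells with 3 or more of the 10 had a median of 5630 genes, cells with none 3032. Their median reads were 274116 and 197605, and the part of detection in the count was not tested. Reads were concentrated in few cells: the 10 cells with the most reads of these genes gave 46.9% of them, and the first 40 gave 79.8%. A cell of flow cell 1, the deepest of all with 1459543 reads, gave 11.8%; it had all 10 genes, 8 of 12 licensing genes and 1 G2 and M phase gene.

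**Figure D2:**
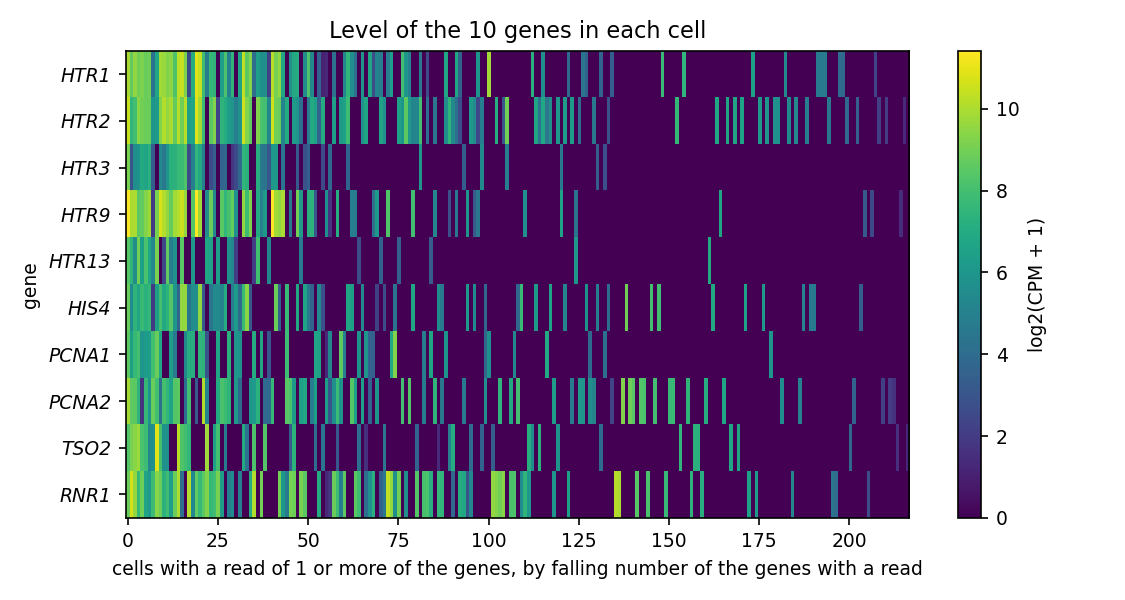
Columns are the 217 cells with a read of at least 1 of the 10 genes, ordered from many to few of the genes, rows are the genes, and colour is log2(CPM + 1). The left end holds the 8 cells with reads of all 10, and the right end cells with only 1, of which many carry HTR2, PCNA2 or RNR1.

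Counting the H3.1 genes in a cell gave the same picture with members that did not enter the count. Of 322 cells, 168 had no H3.1 read, 69 had reads of 1 of the 5 genes, and 33, 14, 21 and 17 had reads of 2, 3, 4 and 5. The median of the summed H3.1 level was 40.6 CPM in cells with 1 gene, 100 with 2, 175 with 3, 1165 with 4 and 1906 with 5. HIS4 was read in 9.52% of cells with no H3.1 gene, in 13% with 1 and in 94.1% with 5. TSO2 was read in 6.55%, 15.9% and 64.7% of the same sets, and RNR1 in 14.3%, 26.1% and 94.1%. PCNA1 stood at 3.57%, 14.5% and 64.7%, and PCNA2 at 14.9%, 14.5% and 76.5%. Depth differed between these sets: median reads were 200620, 272954, 317090, 377584, 205974 and 233023 in cells with 0, 1, 2, 3, 4 and 5 H3.1 genes. Median genes detected were 3329, 4397, 5122, 5646, 4341 and 6849. The part of depth in these shares was not tested.

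**Figure D3:**
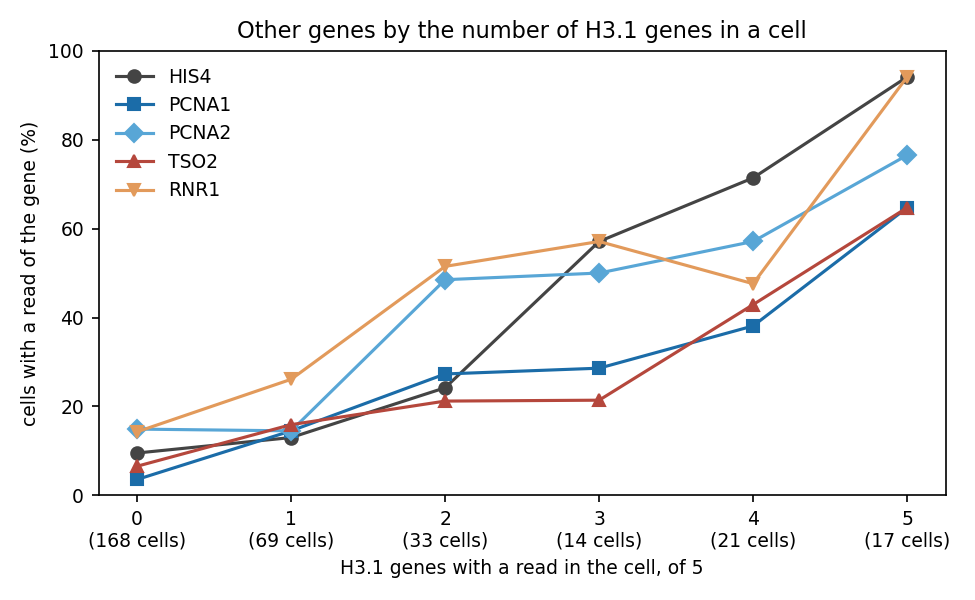
The horizontal axis gives the number of the 5 H3.1 genes with a read in a cell, with the number of cells, and the vertical axis the percentage of those cells with a read of HIS4, PCNA1, PCNA2, TSO2 or RNR1. HIS4 goes from 9.52% of cells with no H3.1 gene to 94.1% of cells with 5, and the other 4 genes end at 64.7% to 94.1%.

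HTR9, HTR2 and HTR1 gave most H3.1 reads on every flow cell. HTR9 gave 34.5% of all H3.1 reads (35.2%, 33.9% and 33.5% on flow cells 1, 2 and 3), HTR2 29.5% (28.9%, 31% and 29.2%) and HTR1 27.6% (26.5%, 27.6% and 31%). HTR13 gave 4.47% (4.72%, 4.21% and 4.07%), and HTR3 gave 3.92%, with 4.74%, 3.38% and 2.2% by flow cell. In the 38 cells with 4 or 5 of the genes, HTR9 was the highest in 20, HTR2 in 12, HTR1 in 5 and HTR13 in 1. A single cell could lean far to 1 gene, since the share of HTR9 ran from 0% to 85.8% over these cells. HTR2 was the gene most often read without the others: 37 of its 109 cells held no other H3.1 read, against 19 of 90 for HTR1, 7 of 66 for HTR9 and 3 each for HTR3 and HTR13. In those 37 cells its median was 52.8 CPM, and in the cells with another H3.1 gene it was 130 CPM.

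Levels followed each other most closely among the H3.1 genes HTR1, HTR2, HTR3 and HTR9. Pearson r of log2(CPM + 1), taken within each flow cell and averaged, ran over the 10 pairs of H3.1 genes from 0.40 to 0.73, with a median of 0.63. The highest pair was HTR1 with HTR9, and the lowest HTR2 with HTR13. HTR13 and HTR9, neighbours on the chromosome, stood at 0.52, below HTR9 with HTR1 (0.73) or HTR3 (0.71). For HTR13, however, 0.52 was its highest r with any other of the 10 genes, followed by HTR3 at 0.48. TSO2 (0.46) and PCNA1 (0.45) came next for HTR13, above the H3.1 genes HTR1 (0.42) and HTR2 (0.40). HIS4 reached 0.38 to 0.60 with the H3.1 genes, and 0.25 to 0.33 with PCNA1, PCNA2, TSO2 and RNR1. Outside histones the highest pair was PCNA1 with RNR1, at 0.46: 37 of the 48 cells with PCNA1 had RNR1 (77.1%), which is 39.8% of the 93 cells with RNR1. PCNA1 and PCNA2 stood at 0.35, and the reductase subunits TSO2 and RNR1 at 0.38. The points of these correlations are 322 cells that share depth and many zeros, so r is a description, and the summed level of the 10 genes had an r of 0.31 to 0.44 with the number of genes detected.

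**Figure D4:**
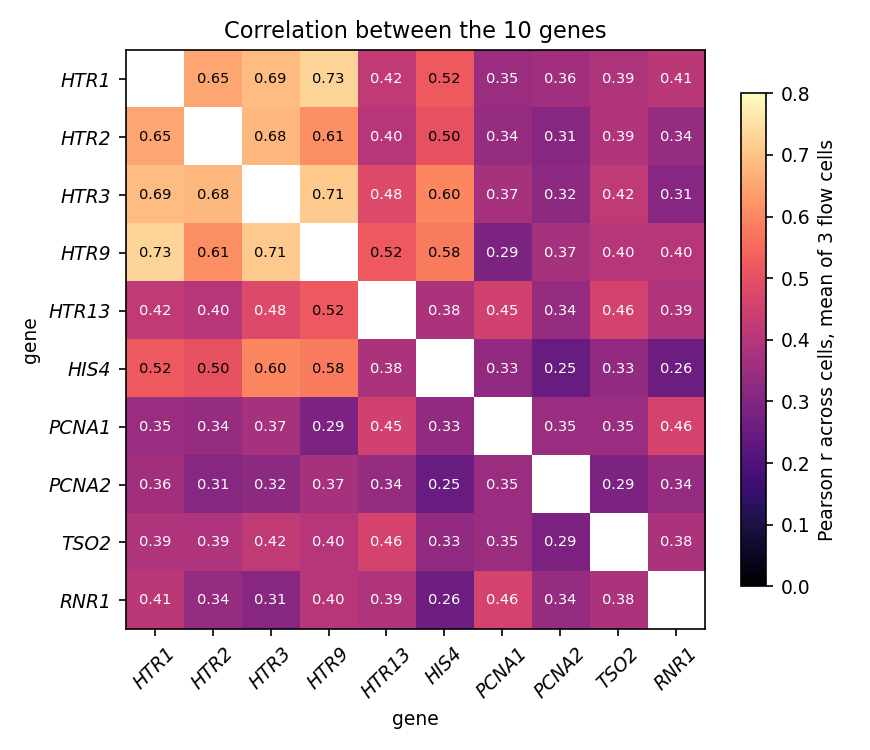
Each square gives Pearson r of log2(CPM + 1) between 2 of the genes across cells, as the mean of 3 flow cells, with the diagonal left blank. The H3.1 genes HTR1, HTR2, HTR3 and HTR9 form the block of highest values, up to 0.73, and HIS4 with PCNA2 is the lowest at 0.25.

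To set the other genes against histone transcription, 127 H3.1-high cells, with at least 20 CPM summed over the 5 H3.1 genes, were compared with 168 cells with no H3.1 read. The 27 cells with less than 20 CPM were left out. This is a range of a continuous level, not a cell type: the nearest cells above the limit had 20.6, 21.9 and 22.1 CPM and the nearest below 19.2, 18.9 and 16.9 CPM. H3.1-high cells had medians of 250864 reads and 4800 genes, and cells with no H3.1 read had 200620 reads and 3329 genes. Genes with 10 or more reads in 5 or more of these cells were measured. A gene is called higher or lower below where the pooled CPM, after TMM correction, differed at least 2-fold and in the same direction on all 3 flow cells. All 5 members outside H3.1 were called higher. Of the 18977 measured genes 9.74% were called higher and 5.98% lower, and their median log2 fold was 0.017.

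TSO2, the reductase small subunit, had the largest pooled fold of the 5, although PCNA1 exceeded it on flow cells 2 and 3 and RNR1 on flow cell 1. Without flow cell 1 the log2 fold was 3.23 for TSO2 and 4.14 for PCNA1. TSO2 was read in 37 of 127 H3.1-high cells (29.1%, 21.4 to 37.9) and in 11 of 168 cells with no H3.1 read (6.55%, 3.31 to 11.4). Its pooled level was 142, 23.7 and 113 CPM in H3.1-high cells of flow cells 1, 2 and 3, against 5.58, 2.56 and 8.29 CPM in cells with no H3.1 read. The lowest of the 3 values in H3.1-high cells exceeded the highest in cells with no H3.1 read, and the log2 fold was 4.00 (4.55, 3.01 and 3.52 by flow cell). Among cells with a read of it, the median was nearly equal, 97.9 CPM in H3.1-high cells and 99.3 CPM in cells with no H3.1 read.

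PCNA1 was read in 29.1% of H3.1-high cells (21.4 to 37.9) and in 3.57% of cells with no H3.1 read (1.32 to 7.61). The pooled level was 51.1, 22.2 and 42.4 CPM in H3.1-high cells by flow cell, against 5.19, 1.66 and 0.691 CPM in cells with no H3.1 read. Every flow cell's value in H3.1-high cells exceeded all 3 of the others, at a log2 fold of 3.45 (3.18, 3.54 and 5.68). A single cell gave 76.6% of the PCNA1 reads in cells with no H3.1 read. PCNA2 was read in 41.7% of H3.1-high cells (33 to 50.8) and in 14.9% of cells with no H3.1 read (9.87 to 21.2). The pooled level of PCNA2 was 163, 47.5 and 63 CPM in H3.1-high cells by flow cell, against 9.78, 41 and 22.4 CPM in cells with no H3.1 read. The log2 fold was 1.92, but it was 3.95, 0.0091 and 1.23 by flow cell, so flow cell 2 showed almost no difference in level after the correction, although the uncorrected values of the classes did not overlap. There the share of cells with a read was 39.5% in H3.1-high cells and 22.2% in cells with no H3.1 read. Without flow cell 1 its log2 fold was 0.34. Among cells with a read of PCNA2, the median was 111 CPM in H3.1-high cells and 122 CPM in cells with no H3.1 read. The same medians were 98.7 and 34.2 CPM for PCNA1, 73.5 and 39.5 CPM for HIS4 and 228 and 175 CPM for RNR1.

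HIS4 was read in 41.7% of H3.1-high cells (33 to 50.8) and in 9.52% of cells with no H3.1 read (5.54 to 15). The pooled level was 97.5, 19.9 and 49.1 CPM in H3.1-high cells by flow cell, against 8.88, 10.5 and 13.1 CPM in cells with no H3.1 read. The classes did not overlap, the log2 fold was 2.33 (3.34, 0.72 and 1.65), and 1 cell gave 33.7% of its reads in H3.1-high cells. RNR1, the reductase large subunit, was read in 48% of H3.1-high cells (39.1 to 57.1) and in 14.3% of cells with no H3.1 read (9.37 to 20.5). The pooled level of RNR1 was 264, 181 and 162 CPM in H3.1-high cells by flow cell, against 8.24, 85.7 and 71.9 CPM in cells with no H3.1 read. Again the classes did not overlap, flow cell 1 showed the widest gap, and the log2 fold was 2.02 (4.88, 0.88 and 0.91). A single cell gave 24.9% of the reads in H3.1-high cells and another 35.5% of those in cells with no H3.1 read. Without flow cell 1 the log2 fold was 0.91 for RNR1 and 1.08 for HIS4, and 3 of the 5 genes were called higher. In cells thinned to equal reads the log2 folds were 3.70 for TSO2, 2.34 for PCNA1, 2.13 for HIS4, 1.69 for RNR1 and 1.58 for PCNA2.

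Nearly all of the remaining core histone genes were higher as well. Of 24 genes for H2A, H2B and the other H4, all measured, 21 were called higher and 1 lower, with a median log2 fold of 2.55. All 8 H2B genes were called higher, among them HTB2 (4.18) and AT3G53650, at 48.5 CPM in H3.1-high cells and 0.493 CPM in cells with no H3.1 read (log2 fold 6.49). HTB3 had no read in cells with no H3.1 read and stands at the floor of 3 reads, and AT3G53650 was read in 33 H3.1-high cells and in 1 of the others. Of the 21 histone genes, 3 (HTB3, AT3G53650 and AT3G46320) were under the measuring limit in cells with no H3.1 read and were measured only through H3.1-high cells, which fixes their direction. Among H4 genes 6 of 7 were called higher, led by AT3G46320 with 1101 reads in H3.1-high cells and 4 reads in cells with no H3.1 read (log2 fold 8.14) and AT5G59690 (4.17). The exception was AT1G07660, the most widely read H4 gene, at 0.75. Of 9 H2A genes 7 were called higher, with HTA6 at 4.57. HTA12 was called lower at -3.67, with reads in 1 H3.1-high cell and 7 cells with no H3.1 read, and was not called without flow cell 1, at 100 CPM of H3.1 or in thinned cells. The H2A.Z genes HTA11 and HTA8 were called higher (2.84 and 2.57), and HTA9 stood at 0.31. The linker histones H1.1 (2.29) and H1.2 (1.86) were called higher, and H1.3, read in 4 H3.1-high cells and 3 cells with no H3.1 read, was not.

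Of the 4 genes of H3 variants that are loaded outside replication, 2 were called higher. HTR5 was at 0.42 and HTR4 at 0.30 on the log2 scale, and neither was called. HTR8 was called higher, at 471 CPM in H3.1-high cells and 198 CPM in cells with no H3.1 read (log2 fold 1.13). HTR12, the centromeric H3, was called higher at 1.52 (0.33, 7.23 and 1.60 by flow cell). It had reads in 22.8% of H3.1-high cells and 3.57% of cells with no H3.1 read. Of 7 measured chaperones and H3.1 partners, 2 were called higher: FAS1, the large subunit of the CAF-1 chaperone that deposits H3.1 (2.00), and ASF1B, which hands H3-H4 on (1.39, with 0.12 on flow cell 1).

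Other genes of nucleotide supply were split. Of 6, all measured, 2 were called higher and 1 lower, with a median log2 fold of -0.11. DUT1, the dUTPase that keeps uracil out of DNA, stood at 21.1 CPM in H3.1-high cells and 1.64 CPM in cells with no H3.1 read, a log2 fold of 3.56 (2.66 to 4.33 over flow cells). TK1A, a thymidine kinase that salvages thymidine, was called higher at 1.34. TK1B, its relative, was called lower at -1.04 (-3.10, -0.98 and -0.17 by flow cell), on 80 reads in H3.1-high cells and 169 in the others. TK1B was nevertheless read in a larger share of H3.1-high cells (7.87%) than of cells with no H3.1 read (4.17%). RNR2A, which encodes the same kind of subunit as TSO2, was not called: its log2 fold was -0.52, and 0.75, -1.88 and 0.87 by flow cell. The thymidylate synthase genes THY-1 and THY-2 stood at -0.36 and 0.14.

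Of 12 licensing genes, whose products load the replicative helicase onto origins, 8 were called higher and none lower, with a median log2 fold of 1.80. MCM2 had 83.6 CPM in H3.1-high cells and 6.19 CPM in cells with no H3.1 read (3.63), MCM4 stood at 3.27 and MCM6 at 2.98. ORC6, an origin recognition subunit, stood at 5.24 with reads in 13 H3.1-high cells and 1 cell with no H3.1 read, and like RPA1B below it was measured only through H3.1-high cells. Without the 79 cells with reads of 2 or more G2 and M phase genes, 4 of the 12 were called higher, beside 9.38% of all measured genes. Of 17 genes of the replication fork 6 were called higher: RPA1B (6.24, read in 16 H3.1-high cells and 1 cell with no H3.1 read) and RPA2B (4.82), subunits of the single-strand binding protein, ETG1 (4.45), an MCM binding protein, MET1 (3.18), the maintenance DNA methyltransferase, POLA1 (2.14) and RFC2 (1.18). The median of the list was 0.91. RPA2A, another subunit of the binding protein, stood at -0.30.

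Of 24 G2 and M phase genes 5 were called higher, beside 9.74% of all measured genes, and their list had a median log2 fold of 0.76. Among the 5 were TPX2 (2.05), a spindle factor, and CYCB1;3 (1.85), a mitotic cyclin, both measured only through H3.1-high cells. None of the 24 was called lower. Without flow cell 1 or without flow cell 2 that list had 10 genes called higher (with 1 lower without flow cell 2), and without flow cell 3 it had 3 called higher and 2 lower, where 17.9%, 14.7% and 15.4% of all measured genes were called higher. With H3.1-high cells defined by reads of at least 2 H3.1 genes, 2 of the list were called higher and 3 lower. In that setting 11% of all measured genes were called higher. Of 7 measured D cyclins and CDKA;1, 3 were called higher: CYCD4;1 (2.08, also measured only through H3.1-high cells), CYCD3;1 (1.13) and CYCD1;1 (1.24), the last with 0.017 on flow cell 1. Of 9 cyclin-dependent kinase inhibitors, KRP4 (2.22, with 0.014 on flow cell 3) and KRP2 (1.75) were called higher. Of E2F and RBR genes DPA, a partner of E2F, was called higher (2.22), and RBR1, which restrains E2F, stood at 0.47. None of 8 common reference genes was called, and their median was -0.0033. UBQ10 stood at -0.41 and EF1A at 0.64.

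**Figure D5:**
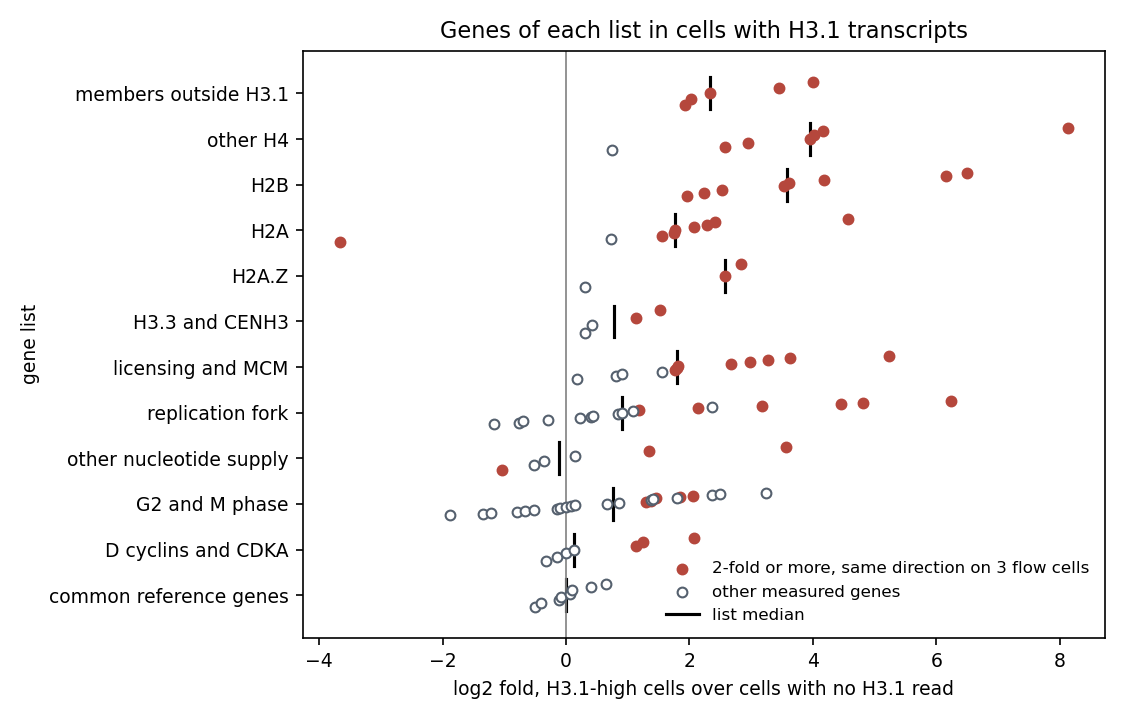
Points are measured genes, the horizontal axis is the log2 fold of pooled CPM in H3.1-high cells over cells with no H3.1 read, filled points are genes called higher or lower, and black bars are list medians. The 5 members outside H3.1 all lie right of 0 with a median of 2.33, H2B genes have a median of 3.57, and common reference genes lie around 0.

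H3.1-high cells divided by whether another member was read. Of the 127, 98 (77.2%) had a read of HIS4, PCNA1, PCNA2, TSO2 or RNR1, and 29 had none. Of the 168 cells with no H3.1 read, 63 (37.5%) had at least 1 of these 5 and 105 had none. Reads of 2 or more licensing genes were present in 58.2% of H3.1-high cells with another member (47.8 to 68.1) and in 3.45% of the 29 H3.1-high cells without one (0.0873 to 17.8). They were present in 30.2% of cells with another member but no H3.1 read (19.2 to 43) and in 5.71% of cells with none of the 10 genes (2.13 to 12). H3.1-high cells with another member had medians of 168 CPM of H3.1 and 5414 genes, and H3.1-high cells without one 89.9 CPM and 4080 genes. Median reads of these H3.1-high sets were close, 248496 and 252529. In cells with no H3.1 read, medians were 262132 reads and 3745 genes with another member, and 197605 reads and 3032 genes with none. The part of depth in these shares was not tested. Reads of 2 or more G2 and M phase genes were present in 37.8% of H3.1-high cells with another member (28.2 to 48.1) and in 24.1% of those without (10.3 to 43.5). In cells with no H3.1 read the intervals overlapped, with 12.7% of cells with another member (5.65 to 23.5) and 18.1% of cells with none of the 10 genes (11.3 to 26.8).

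The genes were read across cells with markers of several tissues. Leaving out tissue sets of 4 cells or fewer, the largest share with 3 or more of them was in cells with stem cell niche markers. Of 22 cells with reads of 2 or more of 6 niche genes, 81.8% had at least 3 of the 10 genes (59.7 to 94.8), against 27.3% of the 300 other cells (22.4 to 32.8). By flow cell these shares were 87.5%, 87.5% and 66.7% in niche cells and 25.5%, 29.5% and 27.1% in the others. The niche cells had a median of 6730 genes, the others 3916, at 244690 and 245742 reads. HTR2 was read in 77.3% of niche cells, RNR1 in 72.7% and TSO2 in 31.8%. Of the 6 niche genes, 2 were called higher in H3.1-high cells and none lower: BBM and WOX5, transcription factors of the root meristem centre, with log2 folds of 3.76 and 2.39. AGL42 stood at -1.10, and PLT1 and PLT2 were at 2.45 and 1.00 pooled but at -3.47 and -2.83 on flow cell 1. The summed level of the 10 genes was 1204 CPM in niche cells and 468 CPM in the others.

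Cells with pericycle markers, the tissue of origin, went the other way. Of 137 cells with a read of SKOR, PHO1 or NPF7.3, 24.1% had at least 3 of the 10 genes (17.2 to 32.1), against 36.2% of the other 185 (29.3 to 43.6), and the pericycle share was lower on each flow cell. The intervals of these shares overlapped. Medians were 4218 genes and 288803 reads in pericycle-marker cells, and 3669 genes and 207739 reads in the others. Of 100 cells with 2 or more phloem genes 43% had at least 3 of the 10 (33.1 to 53.3), against 25.7% of the other 222, and the phloem share was higher on each flow cell. Phloem-marker cells had medians of 4468 genes and 262104 reads, the others 3712 genes and 231758 reads. Of 220 cells with 2 or more vascular precursor genes the share was 35.9% (29.6 to 42.6), against 20.6% of the other 102 (13.2 to 29.7), with median genes of 4481 and 3202. The summed level went the other way, with 472 CPM in vascular precursor cells and 655 CPM in the others. Of 39 cells with a read of a green tissue gene 20.5% had at least 3 (9.3 to 36.5), against 32.5% of the other 283 (27.1 to 38.3), while the summed level was 719 CPM in green-marker cells and 495 CPM in the others. The 3 green tissue genes were all called lower in H3.1-high cells, RBCS1A with 287 reads in H3.1-high cells and 5749 reads in cells with no H3.1 read. Of 262 cells with 2 or more lateral root primordium genes 34.4% had at least 3 of the 10 (28.6 to 40.4), against 16.7% of the other 60 (8.29 to 28.5), with median genes of 4467 and 2290. Their summed level was 474 CPM and that of the others 764 CPM. Of 21 cells with 2 or more endodermis genes the share was 38.1% (18.1 to 61.6), against 30.6% of the other 301 (25.4 to 36.1), with median genes of 5841 and 3914. No cell had reads of 2 of the 4 root cap genes. Summed levels were pooled over the cells of a set, so cells with many reads of the genes weighed most. Neither the part of these marker sets nor that of detection in the results was tested.

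Cells with reads of G2 and M phase genes held the 10 genes more often but at a lower pooled level. Of 79 cells with 2 or more G2 and M phase genes 50.6% had at least 3 of the 10 (39.1 to 62.1), against 24.7% of the other 243 (19.4 to 30.6). The summed level, pooled over cells, was 404 CPM in cells with 2 or more G2 and M phase genes and 558 CPM in the others. The cell that gave 11.8% of all reads of the 10 genes had 1 G2 and M phase gene and was among the others. These levels were not compared by flow cell or without that cell. The median number of genes detected was 5675 in cells with 2 or more G2 and M phase genes and 3751 in the others. HTR1 and HTR2 were each read in 43% of the 79 cells, TSO2 in 20.3% and RNR1 in 35.4%. Of the 95 cells with 2 or more licensing genes 64.2% had at least 3 of the 10 (53.7 to 73.8), against 17.2% of the other 227 (12.5 to 22.7), and the summed level was 1133 CPM in licensing cells and 261 CPM in the others. Licensing cells had a median of 5666 genes and the others 3685, and the part of detection in either share was not tested. In licensing cells RNR1 was read in 60%, PCNA2 in 55.8% and HTR2 in 54.7%. These sets overlap and were not compared with each other.

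The genes outside the lists whose levels most resembled the summed level of the 10 were ranked by likeness. Likeness was Pearson r of log2(CPM + 1) within flow cells, averaged, over 13942 genes with reads in 20 or more cells, where the median r was 0.097 and the 99th percentile 0.35. The highest was AT5G45775, annotated in RefSeq as a ribosomal L5P family protein (0.46). AT2G32060, AT4G12600, AT3G11510, AT3G22230 and AT5G61170, all of ribosomal protein or related families, followed at 0.42 to 0.43, with BBC1 at 0.42. NAP57 (0.43), FKBP53 (0.42), a histone chaperone of the FK506-binding family, and VIM1 (0.42), which binds methylated DNA, completed the 10. Among genes in the lists, histones led: the H4 genes AT3G53730 and AT5G59690 stood at 0.55 and HTB4 at 0.54. These values are over 322 cells that share depth and number of genes.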

How the data were processed

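The authors deposited raw read counts per gene for 573 plate wells, whole numbers whose totals differ between wells. Reads were single-end, of 150 bp, and the build was TAIR 10, per the labels' protocols and the submitters' processing notes. No label or file names an aligner, a counting tool or a strand setting. A second deposited text gives each well's flow cell and plate but not its replicate, so wells were treated as 1 sample and no p-value was computed.

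Python 3.11.15 with numpy 2.4.6, pandas 2.3.3 and scipy 1.17.1 was used. Shares have exact Clopper-Pearson 95% intervals. Classes of cells were compared by pooled CPM after a trimmed mean of M values (TMM, 30% of M and 5% of A). A gene with 0 reads stood at a floor of 3 reads over the class. This step was tested on simulated data. Folds there were planted only in genes with many reads, and all genes had the same spread. The simulation therefore says little about genes read in few cells. Doublets were not called, and wells that caught more than 1 cell were not looked for. Sequences came from RefSeq TAIR10.1.

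The genes, lists and rules were chosen with earlier results of these data known. The text names all 10 genes, up to 4 genes of each list by largest absolute log2 fold among those that kept their direction on every flow cell, and the 10 genes outside the lists most like the summed members; other list genes were named after their values were seen. Alternatives were other gene minimums, 5 reads for detection, thinning, scaling, H3.1 limits, means of CPM per cell, no low-count filter, other measures of likeness and leaving out each flow cell.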

Additional observations from a re-analysis of the deposited data

How the results depend on the processing

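With 5 reads required for detection, the share of cells with at least 1 of the 10 genes was 59.3% in place of 67.4%, and with at least 3 it was 22.4% in place of 31.1%; thinning and the other gene minimums kept both within their intervals. Leaving out each flow cell in turn gave 64.6% to 71.4% and 29.6% to 32.3%. The number of members outside H3.1 called higher was 3 to 5 over these 3 settings (3 without flow cell 1, where RNR1 stood at 0.91 and PCNA2 at 0.34), 4 with at least 1000 genes per well, and 4 without cells with G2 and M phase genes, where PCNA2 was negative on flow cell 2 (-0.0024 and -0.97). It was 5 under the other settings run. Licensing genes called higher were 8 to 11 of 12 without a flow cell, and 4 without cells with G2 and M phase genes. All measured genes called higher were 2585 to 3058 and lower 1923 to 2051 without a flow cell, in place of 1848 and 1135. Fewer flow cells then had to share the direction, and the pooled cells and measured genes changed as well. H2A, H2B and other H4 genes called higher stayed at 21. Of the 10 genes most like the members, 6 were shared with log2(CPM + 10). Of alternative CPM levels of the members, 50 moved by more than their counting interval and 20 did not. The causes of these changes were not tested. Dropping cells with G2 and M phase genes and dropping the cell with most member reads were chosen after seeing the data. No paired analysis was possible because neither labels nor files link wells and replicates. Depth limits what a cell without a read shows: the gene may be transcribed below detection.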

Other observations

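AT1G07660, the H4 gene that gave 48.1% of H4 reads, stood at 101 RPKM (reads per kilobase, scaled to depth) on flow cell 1 and at 568 and 578 on flow cells 2 and 3. HIS4 stood at 58.7 on flow cell 1 and at 20.3 and 38.9 on the others, so these H4 genes did not differ between flow cells in the same direction.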
